A study of Homo sapiens with 48 samples.

Results

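The GALNT genes encode the polypeptide N-acetylgalactosaminyltransferases, the Golgi enzymes that start mucin-type O-glycosylation. They were followed here as a group of 10, namely GALNT1, GALNT2, GALNT3, GALNT4, GALNT5, GALNT6, GALNT7, GALNT10, GALNT12 and GALNT16. They make up 10 of the 36843 genes in the deposited count table, and a further 10 genes of the family (GALNT8, GALNT9, GALNT11, GALNT13, GALNT14, GALNT15, GALNT17, GALNT18, GALNTL5 and GALNTL6) served as their closest comparison. The 10 members were chosen by name, and the choice used one measured value, the lower level of GALNT16 under ZNF274 overexpression. Every value of that contrast is therefore given as a description, without a test, for each member.

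RNA-seq covered 30 libraries in 10 groups of 3 from 3 established human pancreatic ductal adenocarcinoma lines. In ASPC1 and in CFPAC1 the groups were cells transfected with an siRNA against ZNF274 (siZNF274), cells given 5 µM AZA (azacitidine, an inhibitor of DNA methyltransferases), cells transfected with a control siRNA (siCTRL) and cells given the solvent DMSO. In Panc3.27 the groups were cells carrying a ZNF274 overexpression construct (OE) and cells carrying the empty vector. The labels do not say whether the OE and vector cells are clones or pools. A further 18 CUT&RUN samples came from ASPC1 with a doxycycline-induced hairpin against ZNF274 (shZNF274) or a control hairpin (shCTRL), and from these the list of peaks of H3K9me3, a histone mark of silent chromatin, was used.

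Each GALNT enzyme moves N-acetylgalactosamine from UDP-GalNAc onto a serine or threonine of a protein passing through the Golgi. Some members, among them GALNT1 and GALNT2, act on unmodified protein, while GALNT4, GALNT7, GALNT10 and GALNT12 are known for their preference for chains that already carry a GalNAc. The first sugar is then extended by core enzymes such as C1GALT1 and GCNT3 or capped by sialyltransferases such as ST6GALNAC1, and the mucins that carry these chains are a well known product of pancreatic ductal cancer cells.

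Totals ran between 31415743 and 43383141 counts per library. ZNF274, a zinc finger protein that recruits the machinery for H3K9me3, showed no called decrease where the siRNA against it was used: it stood, with siZNF274, at 19.4 ± 2.93 CPM against 17.6 ± 2.61 CPM with siCTRL in ASPC1 (SD, n = 3 each; edgeR adjusted p = 0.305) and at 32.8 ± 1.47 CPM against 34.4 ± 1.12 CPM in CFPAC1 (edgeR adjusted p = 0.423). CPM are counts per 1000000 counts, scaled within a line by TMM factors unless said otherwise. Since the targeted transcript did not pass the test, these groups are called the libraries labelled siZNF274, and "with siZNF274" below refers to that label. In Panc3.27 ZNF274 was 2.76-fold higher in OE cells, with 135.7 ± 2.90 CPM against 49.1 ± 1.54 CPM in vector cells (SD, n = 3 each; edgeR adjusted p = 4.17e-11). The design text describes Panc3.27 as low in ZNF274, but on CPM scaled over all 30 libraries its vector cells held 46.2 ± 1.10 CPM, against 14.4 ± 1.27 CPM in ASPC1 and 27.9 ± 0.639 CPM in CFPAC1 with DMSO. All 6 ductal epithelial markers examined (EPCAM, KRT8, KRT18, KRT19, KRT7 and CDH1) averaged over 1 CPM in each line. Of the 5 leukocyte markers only LYZ was abundant in ASPC1 and CFPAC1, and the 4 acinar markers summed to under 1 CPM in every library.

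Promoter sequences are shown for the members on which the results below turn: GALNT16, with the lowest fold change under overexpression, GALNT3, nearly silent in ASPC1, and GALNT10 and GALNT12, whose responses to the demethylating drug AZA differed between lines. RefSeq (GRCh38.p14) held promoter windows for 7 of the 10 members, with 9 start sites in all, and no entry was matched for GALNT4, GALNT5 and GALNT6. The printed runs are the 250 bases before the annotated start, read 5′ to 3′ along the gene, with every CG dinucleotide, the site of DNA methylation, in capitals. They lie at chr14:69259908-69260157 on the plus strand for GALNT16, at chr2:165794248-165794497 on the minus strand for GALNT3, at chr5:154190483-154190732 on the plus strand for GALNT10 and at chr9:98807420-98807669 on the plus strand for GALNT12.
GALNT16: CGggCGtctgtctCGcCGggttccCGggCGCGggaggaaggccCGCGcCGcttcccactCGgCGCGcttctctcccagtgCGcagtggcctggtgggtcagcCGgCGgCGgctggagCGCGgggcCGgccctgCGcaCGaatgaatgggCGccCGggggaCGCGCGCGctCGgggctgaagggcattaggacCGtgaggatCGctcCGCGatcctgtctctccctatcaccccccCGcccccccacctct
GALNT3: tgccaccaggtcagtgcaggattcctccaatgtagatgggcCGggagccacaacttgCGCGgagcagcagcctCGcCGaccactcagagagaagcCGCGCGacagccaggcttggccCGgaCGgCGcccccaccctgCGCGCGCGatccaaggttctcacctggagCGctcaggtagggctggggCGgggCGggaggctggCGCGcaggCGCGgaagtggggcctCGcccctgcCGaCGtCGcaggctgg
GALNT10: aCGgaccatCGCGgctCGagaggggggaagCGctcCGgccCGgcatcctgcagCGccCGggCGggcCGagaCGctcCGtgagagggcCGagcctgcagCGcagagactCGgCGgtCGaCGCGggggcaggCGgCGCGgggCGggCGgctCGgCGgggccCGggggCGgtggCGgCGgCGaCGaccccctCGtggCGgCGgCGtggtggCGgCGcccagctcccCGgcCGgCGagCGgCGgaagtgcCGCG
GALNT12: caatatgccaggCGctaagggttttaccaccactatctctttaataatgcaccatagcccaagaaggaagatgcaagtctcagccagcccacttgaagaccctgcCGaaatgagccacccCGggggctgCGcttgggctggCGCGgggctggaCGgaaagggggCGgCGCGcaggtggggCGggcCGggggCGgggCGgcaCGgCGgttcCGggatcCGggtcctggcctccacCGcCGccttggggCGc

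The search was for the letters CG in the 300-base window (250 bases before the start and 50 from it on), where a match reads the same on both strands. The GALNT10 window held 51 CG, more than 99.0% of the 35114 RefSeq promoter windows. The GALNT16 window held 37 CG, more than 88.7% of all windows, the GALNT12 window 29 and the GALNT3 window 28. The median window had 14 CG, with quartiles at 4 and 28, and 96.0% of windows held at least one. Of the 9 start sites of members, 8 were above this median, and the most upstream of the 3 GALNT1 starts, with 9 CG, was not. DNA methylation itself was not analysed here.

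GALNT16 (ENSG00000100626.17, hg38, chr14:69259277-69357033) had 50, 69 and 67 counts in the OE libraries of Panc3.27, against 1153, 1116 and 1138 counts in the vector libraries. The 2 sets of 3 were far apart and each was tight. Its level was 1.72 ± 0.222 CPM in OE cells and 28.5 ± 1.68 CPM in vector cells (SD, n = 3 each), 16.5-fold lower in OE cells, a log2 fold change of -4.04 (SE 0.10) in the edgeR fit. Of the 17350 genes tested in Panc3.27 it had the lowest log2 fold change, and the next lowest, RP1-56K13.3, stood at -2.39. In bulk RNA, fewer cells expressing GALNT16 and less GALNT16 RNA per cell cannot be told apart.

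**Figure D1:**
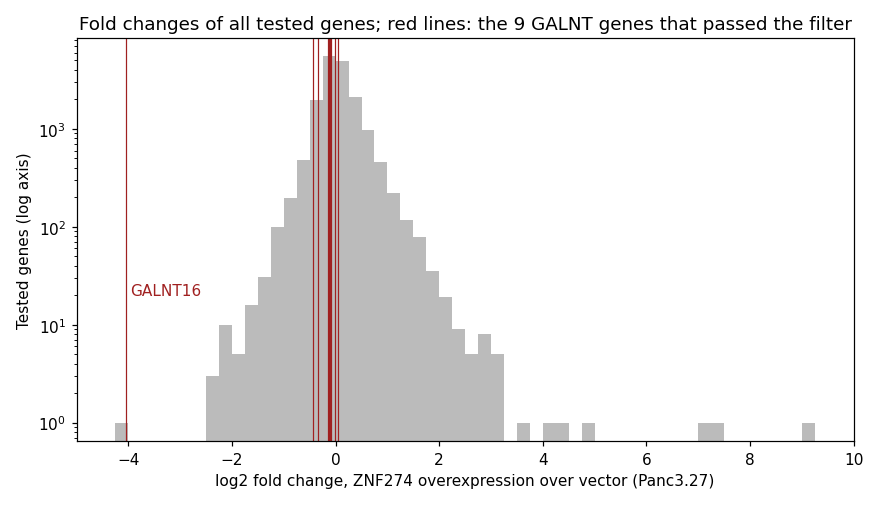
Histogram of the log2 fold change (ZNF274 overexpression over vector, Panc3.27) of the 17350 tested genes, with the number of genes on a log axis and red lines at the 9 GALNT genes that passed the filter. GALNT16 stands alone at -4.04, and the other 8 lie between -0.44 and 0.05.

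The other members differed little between OE and vector cells. GALNT6, a close paralog of GALNT3, had 18.1, 18.5 and 18.1 CPM in OE libraries against 25.2, 24.6 and 24.2 CPM in vector libraries, a log2 fold change of -0.44. GALNT5 averaged 21.3 ± 0.508 CPM in OE cells and 26.9 ± 1.31 CPM in vector cells, a log2 fold change of -0.34. GALNT3, the enzyme known for protecting the hormone FGF23 from cleavage, averaged 197.3 ± 1.98 CPM in OE cells and 216.1 ± 14.8 CPM in vector cells. The groups overlapped for GALNT2, GALNT10 and GALNT12. The log2 fold changes of GALNT7, GALNT3, GALNT10, GALNT1, GALNT2 and GALNT12 lay between -0.15 and 0.05, and GALNT4, with 9 to 15 counts per library, did not pass the filter on low counts in this line. In 6 of the 9 members that passed, all OE libraries were below all vector libraries, as they were in 22.9% of all tested genes; since the members were chosen on this contrast, nothing is read from that count. The 6 epithelial markers summed to 5024 to 5073 CPM in OE libraries against 5420 to 5633 CPM in vector libraries, with 3 called lower and 1 higher. The 4 endothelial markers, nearly all VWF, summed to 54.4 to 57.8 CPM in OE libraries against 30.3 to 30.7 CPM in vector libraries. The 5 fibroblast markers, nearly all COL1A1, summed to 52.9 to 55.6 CPM in OE libraries against 71.9 to 73.9 CPM in vector libraries, and the part of these lists in the differences was not tested.

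The genes around GALNT16 were measured in the same libraries. Within 1000000 bases on either side 12 genes were tested, and with edgeR's quasi-likelihood test (adjusted p under 0.05) 2 were higher and 4 lower in OE cells. Among all tested genes in Panc3.27, 36.9% were called, 19.8% higher and 17.1% lower. The log2 fold changes of these neighbours ran from -0.49 to 0.69. The nearest on each side were EXD2, 15.3 kb away, with 57.1 ± 1.45 CPM in OE cells and 59.6 ± 1.27 CPM in vector cells, and ERH, 23.1 kb away, with 102.2 ± 4.04 CPM in OE cells and 130.6 ± 11.2 CPM in vector cells. EXD2 was not called (edgeR adjusted p = 0.344), whereas ERH was called lower at a log2 fold change of -0.35 (edgeR adjusted p = 0.000339).

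**Figure D2:**
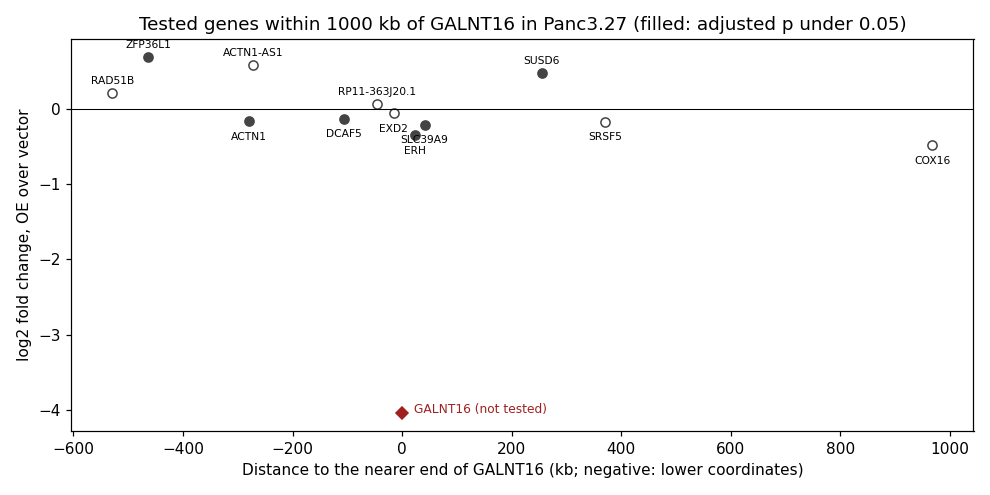
log2 fold change (OE over vector, Panc3.27) of the 12 tested genes within 1000 kb of GALNT16, by their distance in kb to its nearer end, with filled points for an adjusted p under 0.05. The neighbours lie between -0.49 and 0.69, and GALNT16, drawn as a diamond without a test, at -4.04.

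Outside Panc3.27, GALNT16 was barely detected. CFPAC1 libraries held 15, 5 and 11 counts with siZNF274, 11, 5 and 3 with siCTRL, 6, 10 and 7 with AZA, and 9, 3 and 12 with DMSO. These ranges overlap throughout, and neither the siZNF274 contrast (log2 fold change 0.71, SE 0.57, edgeR adjusted p = 0.407) nor the AZA contrast (-0.22, SE 0.58, edgeR adjusted p = 0.820) was called. In ASPC1 a single count was found over all 12 libraries, and a count of 0 there allows at most 0.0752 to 0.0955 CPM per library (3 counts of the total, counting error only). From low to high, on CPM scaled over all 30 libraries, GALNT16 thus stood lowest in ASPC1, then at 0.154 to 0.262 CPM in the 4 CFPAC1 groups, each overlapping its neighbour, at 1.62 CPM in OE cells and at 26.8 CPM in vector cells of Panc3.27.

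The enzymes that extend or cap the first GalNAc, and the mucins, could be tested in the overexpression contrast, where 36.9% of all tested genes were called. Of the core and branching list 7 of 7 genes were tested, with 3 higher and 1 lower, and a median log2 fold change of 0.10 against 0.01 over all tested genes. GCNT3, which branches core 1 and core 3 chains, was 2.39-fold higher in OE cells (edgeR adjusted p = 9.82e-07), B3GNT3 1.20-fold higher (edgeR adjusted p = 0.00377) and B3GNT6, the core 3 synthase, higher at a low level (0.432 ± 0.138 CPM in OE cells and 0.123 ± 0.138 CPM in vector cells, edgeR adjusted p = 0.0366). Of the mucin list 9 of 14 genes were tested, with 3 higher and a median log2 fold change of 0.25. MUC16 was 2.09-fold higher (edgeR adjusted p = 3.73e-06), MUC4 2.07-fold higher (edgeR adjusted p = 5.34e-07) and MUC15 1.87-fold higher (edgeR adjusted p = 0.00283). Of the sialylation list 5 of 6 were tested, with ST6GALNAC2 higher (1.48-fold, edgeR adjusted p = 5.29e-06) and ST3GAL1, which caps core 1, 1.44-fold lower (edgeR adjusted p = 0.00687). Of the 9 genes that supply nucleotide sugars, all tested, 2 were higher and 2 lower, led by GFPT2 (1.16-fold higher, edgeR adjusted p = 0.00300). In the rest of the GALNT family 5 of 10 were tested and 2 were higher, GALNT14 (2.21-fold, at 0.535 ± 0.190 CPM in OE cells and 0.240 ± 0.107 CPM in vector cells, edgeR adjusted p = 0.0412) and GALNT18 (1.14-fold, edgeR adjusted p = 0.0174). By DESeq2 1 of the 5 was called, GALNT18, and the call for GALNT14 was lost.

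In the libraries labelled siZNF274 of ASPC1, 8 members passed the filter (all but GALNT3 and GALNT16), 2 rose and 3 fell against siCTRL, 62.5% of those that passed, while 45.7% of the 16186 tested genes were called in either direction, 21.5% higher and 24.2% lower. The median log2 fold change of the 8 was 0.09, and that of all tested genes was 0.00 to 2 decimals. GALNT10 had 7.87, 8.09 and 8.84 CPM with siZNF274 against 12.4, 13.5 and 13.6 CPM with siCTRL. No library of the siZNF274 group reached the siCTRL range. Its log2 fold change was -0.67 (SE 0.08), 1.59-fold lower (edgeR adjusted p = 7.20e-06). GALNT2, which acts on lipid-handling proteins such as apolipoprotein C-III, had 156.4, 154.0 and 138.8 CPM with siZNF274 against 181.0, 212.8 and 207.4 CPM with siCTRL, 1.34-fold lower (edgeR adjusted p = 7.81e-05). Both GALNT10 and GALNT2 were also called higher with siCTRL than with DMSO, as given below for the control groups. GALNT12, expressed in normal colon, fell 1.17-fold (log2 fold change -0.23, SE 0.07, edgeR adjusted p = 0.0131); without the third siZNF274 library its adjusted p was 0.0798 (edgeR). GALNT5 rose to 113.8, 114.7 and 109.4 CPM with siZNF274, against 90.4, 89.6 and 79.0 CPM with siCTRL, a 1.304-fold difference (edgeR adjusted p = 0.000118). With siCTRL it was itself 2.03-fold lower than with DMSO (edgeR adjusted p = 5.79e-09), also given below. GALNT1, one of the broadly expressed starters, rose 1.15-fold (edgeR adjusted p = 0.00104). GALNT4, GALNT6 and GALNT7 did not pass the test, with log2 fold changes of 0.42, 0.09 and 0.10, although GALNT4 was called in 2 and GALNT7 in 3 of 12 alternative settings.

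The intervals of MFAP3 and GALNT10 overlap in the genome, and MFAP3 had 1657 to 3177 counts per library, against 254 to 638 of GALNT10 in ASPC1. No source used here states whether the counting was strand-specific. MFAP3 moved the other way in ASPC1, 1.13-fold higher with siZNF274 (edgeR adjusted p = 0.00699) and at 0.865 of the DMSO level with AZA (edgeR adjusted p = 0.00248). SAP30L-AS1, which also overlaps GALNT10, had 36 to 126 counts per library. With siZNF274 its log2 fold change was -0.21 in ASPC1 and -0.29 in CFPAC1, neither called. With AZA in ASPC1 it stood at 0.630 of the DMSO level (edgeR adjusted p = 0.0152). The part of either gene in the counts of GALNT10 was not tested. GALNT4 lies within the interval of POC1B, which had 751 to 1511 counts per library, so the values of GALNT4 carry that uncertainty.

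In the libraries labelled siZNF274 of CFPAC1 all 10 members passed the filter, and 2 rose and 6 fell against siCTRL, 80% of the members; of the 18103 tested genes 24.8% were called, 11.6% higher and 13.2% lower. The median log2 fold change of the members was -0.22 and that of all tested genes -0.01. GALNT3 had 65.9, 66.6 and 73.4 CPM with siZNF274 against 102.6, 105.7 and 102.2 CPM with siCTRL. The groups were well separated, with a log2 fold change of -0.59 (SE 0.06), 1.51-fold lower (edgeR adjusted p = 4.02e-06). GALNT12 had 13.4, 14.1 and 14.6 CPM with siZNF274 against 17.6, 19.7 and 19.4 CPM with siCTRL, 1.35-fold lower (edgeR adjusted p = 0.000498). GALNT10 had 273.4, 289.6 and 301.2 CPM with siZNF274 against 346.2, 354.9 and 347.4 CPM with siCTRL, 1.21-fold lower (edgeR adjusted p = 0.000533). For both genes every siZNF274 library was below every siCTRL library.

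GALNT5 had 144.1, 118.8 and 121.5 CPM with siZNF274 against 186.4, 151.2 and 148.0 CPM with siCTRL in CFPAC1, 1.26-fold lower (edgeR adjusted p = 0.00660). In both groups the first library was the highest. GALNT2 rose to 516.0, 467.7 and 479.3 CPM with siZNF274, against 402.1, 426.6 and 433.2 CPM with siCTRL, 1.16-fold higher (edgeR adjusted p = 0.00711). GALNT4 had 109, 121 and 105 counts with siZNF274 against 48, 78 and 75 with siCTRL, 1.67-fold higher (edgeR adjusted p = 0.0183), and its call was lost without the first siCTRL library (edgeR adjusted p = 0.0688), the first siZNF274 library (0.0551) or the second (0.0530). GALNT6 fell 1.27-fold (edgeR adjusted p = 0.000363); SLC4A8, whose interval overlaps that of GALNT6, also fell, to 0.802 of the siCTRL level (edgeR adjusted p = 0.0200), and its part in the counts of GALNT6 was not tested. GALNT7 fell 1.12-fold (edgeR adjusted p = 0.0284), a call that 7 of 12 alternative settings did not keep. GALNT1 (log2 fold change -0.10) and GALNT16 did not pass the test.

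The 2 lines differed in how the members moved. GALNT10 and GALNT12 fell in both, whereas GALNT2 and GALNT5 were called in opposite directions. Tested as an interaction over 24 libraries (ASPC1 minus CFPAC1), 16.6% of 19094 genes were called, 7.37% with a positive and 9.28% with a negative difference. These 19094 were not limited to genes that passed in both lines, unlike the members counted here. Of the 8 members that passed in both lines, the difference of log2 fold changes was called for 5. It was 0.70 (SE 0.11) for GALNT5 (edgeR adjusted p = 3.36e-05), -0.65 (SE 0.09) for GALNT2 (edgeR adjusted p = 4.48e-06), -0.41 (SE 0.09) for GALNT10 (edgeR adjusted p = 0.00108), 0.29 for GALNT1 (edgeR adjusted p = 0.00163) and 0.24 for GALNT7 (edgeR adjusted p = 0.0111). For GALNT12 the difference was 0.19 (SE 0.10) and was not called (edgeR adjusted p = 0.233).

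**Figure D3:**
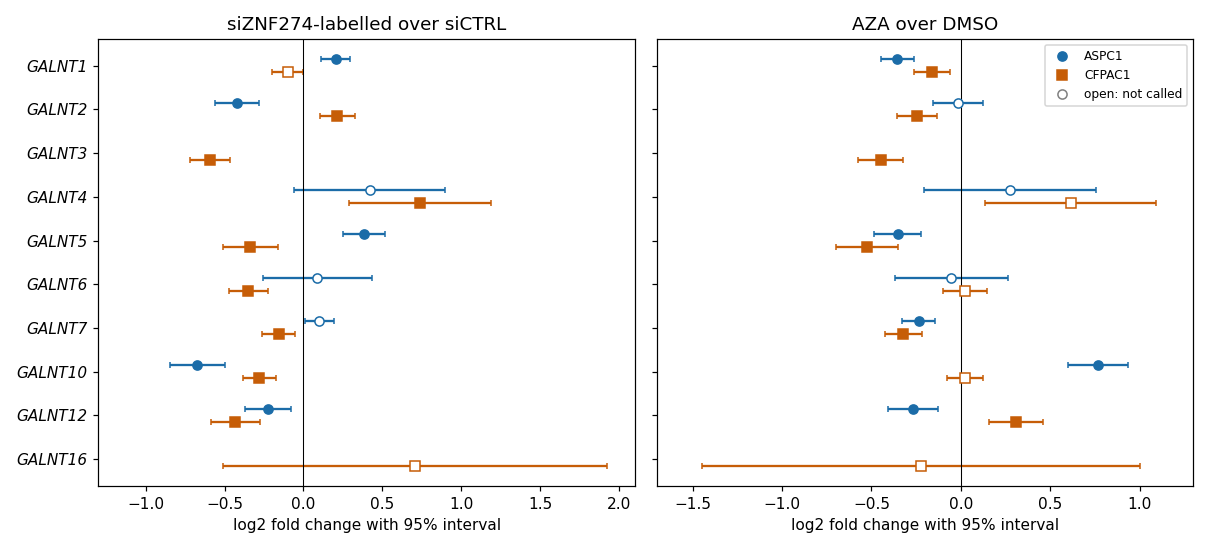
log2 fold change with its 95% interval of each member that passed the filter, with the libraries labelled siZNF274 over siCTRL on the left and AZA over DMSO on the right, circles for ASPC1 and squares for CFPAC1, open where not called. GALNT2 and GALNT5 lie on opposite sides of 0 in the left panel (-0.42 and 0.38 in ASPC1, 0.21 and -0.34 in CFPAC1), and GALNT10 and GALNT12 separate by line in the right panel.

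Epithelial markers moved with the same contrast. In ASPC1 the 6 markers summed to 6805 to 7511 CPM with siZNF274 against 9646 to 10922 CPM with siCTRL, with 5 of 6 called lower and 1 higher. In CFPAC1 they summed to 7489 to 7857 CPM with siZNF274 against 8561 to 9724 CPM with siCTRL, with 6 of 6 lower, and no marker of the list was at 0 in any group. The 5 fibroblast markers, mostly LUM, summed to 135 to 146 CPM with siZNF274 against 117 to 128 CPM with siCTRL in ASPC1, and the 4 endothelial markers, mostly KDR, to 14.5 to 21.3 CPM with siZNF274 against 3.97 to 5.36 CPM with siCTRL in CFPAC1, where CDH5 was at 0 with siCTRL. The 5 leukocyte markers, nearly all LYZ, summed to 95.2 to 105 CPM with siZNF274 against 164 to 168 CPM with siCTRL in ASPC1, where CD3E was at 0 in both groups, and to 82.7 to 97.9 CPM with siZNF274 against 67.8 to 74.2 CPM with siCTRL in CFPAC1. The part of these markers in the changes of the GALNT genes was not tested.

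The rest of the pathway was tested in the same fits, with the share called over all tested genes at 45.7% in ASPC1 and 24.8% in CFPAC1. In ASPC1 the core and branching list had 1 gene higher and 2 lower of 5 tested, the sialylation list 2 lower of 4, the mucin list 1 higher and 5 lower of 9 and the nucleotide sugar list 4 higher and 3 lower of 8, with median log2 fold changes of -0.38, -0.45, -0.48 and 0.03. Of the other GALNT family genes, GALNT9 and GALNT11 were tested and 0 of 2 were called by edgeR (smallest adjusted p = 0.749), with 0 at an unadjusted p under 0.05 and 0 by DESeq2. GCNT3 fell 1.80-fold (edgeR adjusted p = 9.18e-10) and B3GNT3, which extends core 1, 1.2996-fold (edgeR adjusted p = 1.69e-05). ST6GALNAC1, the enzyme that makes sialyl-Tn by capping the first GalNAc, had 0.193 ± 0.0755 CPM with siZNF274 and 0.989 ± 0.208 CPM with siCTRL, 5.06-fold lower (edgeR adjusted p = 7.62e-05), and ST3GAL1 fell 1.60-fold (edgeR adjusted p = 6.02e-09). Among mucins MUC5B fell 3.73-fold, MUC13 2.39-fold and MUC1 2.39-fold (edgeR adjusted p = 6.91e-09, 1.03e-08 and 5.34e-08). GFPT1, the rate-limiting enzyme of hexosamine synthesis, fell 1.45-fold against siCTRL (edgeR adjusted p = 1.55e-05). With siCTRL it was itself 2.48-fold higher than with DMSO (edgeR adjusted p = 1.62e-09). GFPT1 averaged 307.9 CPM with siZNF274, 445.6 CPM with siCTRL and 179.6 CPM with DMSO, and siZNF274 against DMSO was not tested. SLC35D1, a transporter of UDP-GalNAc and UDP-glucuronic acid, fell 1.33-fold (edgeR adjusted p = 8.55e-06), and UAP1L1 rose 1.53-fold (edgeR adjusted p = 3.99e-05).

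In CFPAC1 the same lists had 1 higher and 1 lower of 7 (core and branching), 1 higher and 1 lower of 5 (sialylation), 2 lower of 10 (mucins) and 1 lower of 9 (nucleotide sugars), shares near or below the 24.8% of all tested genes for all 4 lists except sialylation. Of the other GALNT family genes 0 of 4 were called by edgeR (smallest adjusted p = 0.0606, for GALNT9), with 1 at an unadjusted p under 0.05 and 0 by DESeq2. GCNT3 rose 1.27-fold there (edgeR adjusted p = 0.00510), and its difference between lines was -1.21 in log2 (SE 0.10, edgeR adjusted p = 1.10e-09). MUC1 fell 1.19-fold (edgeR adjusted p = 0.00663). MUC4 fell 1.81-fold with a wide spread (101.7 ± 21.9 CPM with siZNF274 and 184.0 ± 69.9 CPM with siCTRL, edgeR adjusted p = 0.0282). ST3GAL2 rose 1.41-fold (edgeR adjusted p = 1.27e-05), ST3GAL1 fell 1.24-fold (edgeR adjusted p = 0.00168) and GNPNAT1, of hexosamine synthesis, fell 1.29-fold (edgeR adjusted p = 0.000416). ST3GAL1 was itself 1.36-fold higher with siCTRL than with DMSO in CFPAC1 (edgeR adjusted p = 0.000119). It averaged 172.0 CPM with siZNF274, 214.0 CPM with siCTRL and 157.1 CPM with DMSO.

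Under AZA in ASPC1, 1 member rose and 4 fell against DMSO, 62.5% of the 8 that passed, where 35.8% of 16186 genes were called, 17.2% higher and 18.6% lower. GALNT10 had 15.99, 16.6 and 15.8 CPM with AZA against 8.87, 9.21 and 10.4 CPM with DMSO. The AZA libraries were all above the DMSO libraries, 1.70-fold (log2 fold change 0.77, SE 0.08, edgeR adjusted p = 1.80e-06). GALNT5 had 144.7, 126.2 and 139.8 CPM with AZA against 182.7, 176.8 and 165.6 CPM with DMSO, 1.28-fold lower (edgeR adjusted p = 0.000292). GALNT1 had 157.8, 166.3 and 161.4 CPM with AZA against 215.7, 201.4 and 203.7 CPM with DMSO, 1.28-fold lower (edgeR adjusted p = 1.01e-05). GALNT7 fell 1.18-fold (edgeR adjusted p = 0.000456) and GALNT12 1.20-fold (edgeR adjusted p = 0.00483). GALNT2, GALNT4 and GALNT6 did not pass the test. GALNT3 and GALNT16 stayed under the filter: GALNT3 had 0, 2 and 0 counts with AZA against 5, 0 and 0 with DMSO, and GALNT16 had no count in the AZA libraries.

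Under AZA in CFPAC1, 1 member rose and 5 fell, 60% of the 10, where 25.7% of 18103 genes were called, 12.2% higher and 13.5% lower. GALNT5 had 150.9, 153.0 and 146.0 CPM with AZA against 213.3, 219.2 and 215.3 CPM with DMSO, 1.44-fold lower (edgeR adjusted p = 0.000200). GALNT3 had 72.7, 75.5 and 69.6 CPM with AZA against 106.6, 93.3 and 97.4 CPM with DMSO, 1.36-fold lower (edgeR adjusted p = 4.93e-05). In both genes all AZA libraries were below all DMSO libraries. GALNT7 had 113.3, 115.7 and 113.2 CPM with AZA against 142.4, 138.4 and 146.6 CPM with DMSO, 1.25-fold lower (edgeR adjusted p = 0.000184). RP11-10K16.1, whose interval overlaps that of GALNT7, also fell, to 0.716 of the DMSO level (edgeR adjusted p = 0.00553). Its part in the counts of GALNT7 was not tested. GALNT2 fell 1.18-fold (edgeR adjusted p = 0.00280), and GALNT1 fell 1.12-fold (edgeR adjusted p = 0.0185), a call lost in 5 of 12 alternative settings. GALNT12 rose to 23.1, 21.97 and 20.7 CPM with AZA, against 16.7, 18.4 and 18.0 CPM with DMSO, 1.24-fold (edgeR adjusted p = 0.00500). GALNT4, with 80, 70 and 108 counts with AZA against 42, 48 and 61 with DMSO, missed the threshold (edgeR adjusted p = 0.0563) but was called in 6 of 12 alternative settings. GALNT6, GALNT10 and GALNT16 did not pass the test.

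GALNT1, GALNT5 and GALNT7 thus fell with AZA in both lines, and GALNT12 was called in opposite directions. For the AZA effect 17.3% of 19094 genes were called for a difference between lines, 8.65% with a positive and 8.66% with a negative difference. These 19094 were again not limited to genes that passed in both lines. The difference between lines in the AZA effect was called for 3 of the 8 members that passed in both. It was 0.73 (SE 0.08) for GALNT10 (edgeR adjusted p = 2.14e-07), -0.58 (SE 0.10) for GALNT12 (edgeR adjusted p = 7.15e-05) and -0.20 (SE 0.06) for GALNT1 (edgeR adjusted p = 0.0268), the last lost in 9 of 17 alternative settings. For GALNT5 and GALNT7 the differences of 0.16 (SE 0.11) and 0.08 (SE 0.07) were not called. In ASPC1 the epithelial markers summed to 9147 to 9431 CPM with AZA against 13407 to 15015 CPM with DMSO, 5 of 6 lower and 1 higher, and in CFPAC1 to 8377 to 8687 CPM with AZA against 9211 to 9646 CPM with DMSO, 2 of 6 lower. The leukocyte markers, nearly all LYZ, summed to 87.8 to 111 CPM with AZA against 266 to 283 CPM with DMSO in ASPC1, and the fibroblast markers, nearly all COL1A1, to 94.0 to 99.3 CPM with AZA against 147 to 158 CPM with DMSO in CFPAC1. Within both lists markers moved both ways. Of 2 leukocyte markers tested in ASPC1, 1 was called higher and 1 lower. Of 4 fibroblast markers tested in CFPAC1, 1 was higher and 1 lower, with a median log2 fold change of 0.22. In ASPC1 2 of 4 fibroblast markers were called higher. CD3E in ASPC1 and DCN in CFPAC1 were at 0 with AZA. The endothelial markers summed to 0.723 to 1.40 CPM with AZA against 0.400 to 0.563 CPM with DMSO in ASPC1, and to 10.9 to 11.2 CPM with AZA against 6.70 to 8.29 CPM with DMSO in CFPAC1. The part of these markers in the changes was not tested.

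Among the other pathway genes under AZA, where 35.8% of all tested genes were called in ASPC1 and 25.7% in CFPAC1, the core and branching list in ASPC1 had 4 of 5 lower, with GCNT3 1.52-fold (edgeR adjusted p = 5.63e-08), C1GALT1, the core 1 synthase, 1.44-fold (edgeR adjusted p = 1.80e-06) and its chaperone C1GALT1C1 1.31-fold lower (edgeR adjusted p = 0.000953). C1GALT1C1 was also 1.28-fold lower with siCTRL than with DMSO in ASPC1 (edgeR adjusted p = 0.00232). The mucin list had 2 higher and 5 lower of 9, among them MUC13 (2.56-fold lower, edgeR adjusted p = 6.61e-09) and MUC5B (1.96-fold lower, edgeR adjusted p = 1.06e-05). MUC4 was 2.85-fold higher at a low level (1.60 ± 0.202 CPM with AZA and 0.557 ± 0.160 CPM with DMSO, edgeR adjusted p = 0.000156). Sialylation had 1 of 4 lower and nucleotide sugar supply 2 of 8 lower, led by SLC35D1 (1.61-fold lower, edgeR adjusted p = 6.35e-08). Of the other GALNT family genes 1 of 2 was called, GALNT11, 1.22-fold lower (edgeR adjusted p = 0.000443). In CFPAC1 the core list had 2 higher and 2 lower of 7, the mucin list 3 higher and 1 lower of 10, the sialylation list 1 higher of 5 and the supply list 2 higher and 1 lower of 9. Of the other GALNT family genes 0 of 4 were called there by edgeR (smallest adjusted p = 0.0680, for GALNT11), with 1 at an unadjusted p under 0.05 and 0 by DESeq2. GCNT4 fell 1.86-fold (edgeR adjusted p = 2.36e-05), and MUC12 was higher at a low level (0.617 ± 0.107 CPM with AZA and 0.149 ± 0.0570 CPM with DMSO, edgeR adjusted p = 0.00164). GCNT3 (1.39-fold, edgeR adjusted p = 0.000429), MUC5B (4.20-fold, edgeR adjusted p = 2.95e-05) and MUC13 (2.05-fold, edgeR adjusted p = 0.0193) were higher there. With siCTRL against DMSO in CFPAC1, GCNT3 was also 1.34-fold higher (edgeR adjusted p = 0.00177). MUC5B was 4.17-fold higher (edgeR adjusted p = 4.37e-05) and GCNT4 1.57-fold lower (edgeR adjusted p = 0.000572). MUC12 and MUC13 were not called (edgeR adjusted p = 0.517 and 0.188). MUC5B averaged 10.46 CPM with AZA, 10.42 CPM with siCTRL and 2.48 CPM with DMSO. The part of the shared DMSO libraries was not tested. The difference between lines in the AZA effect was called for GCNT3, MUC5B and MUC13. It was -1.09, -3.05 and -2.40 in log2 (edgeR adjusted p = 3.67e-09, 2.12e-08 and 3.32e-07).

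The control groups of a line were not alike. In ASPC1, siCTRL stood above DMSO for GALNT1, GALNT2, GALNT7 and GALNT10 (log2 fold changes 0.45, 0.48, 0.38 and 0.47) and below it for GALNT5, GALNT6 and GALNT12 (-1.02, -0.47 and -0.34), 7 of the 8 members that passed, where 30.1% of all tested genes were called, 15.9% higher and 14.2% lower. GALNT5 showed the largest of these, 90.4, 89.6 and 79.0 CPM with siCTRL against 182.7, 176.8 and 165.6 CPM with DMSO, 2.03-fold lower (edgeR adjusted p = 5.79e-09). The call for GALNT6 (edgeR adjusted p = 0.0330) was lost in 7 of 12 alternative settings. In CFPAC1, GALNT5 was 1.33-fold lower with siCTRL (edgeR adjusted p = 0.00218) and GALNT6 1.19-fold higher (edgeR adjusted p = 0.00600), 2 of 10, where 15.5% of genes were called, 7.30% higher and 8.22% lower. SLC4A8 was higher with siCTRL as well, 1.34-fold (edgeR adjusted p = 0.00563). These contrasts share the siCTRL libraries with the siZNF274 contrasts and the DMSO libraries with the AZA contrasts, so they are not independent of them. The epithelial markers summed to 9646 to 10922 CPM with siCTRL against 13407 to 15015 CPM with DMSO in ASPC1, with 3 of 6 lower, and their part in these differences was not tested. In ASPC1 GALNT5 stood at 112.6 ± 2.82 CPM with siZNF274, 86.3 ± 6.39 CPM with siCTRL, 136.9 ± 9.58 CPM with AZA and 175.0 ± 8.68 CPM with DMSO. On CPM scaled over all 30 libraries, GALNT2 in ASPC1 averaged 156.9 with siZNF274, 210.1 with siCTRL and 151.1 with DMSO. Its siZNF274 and DMSO libraries overlapped. GALNT10 averaged 8.66, 13.8 and 9.98 CPM in the same order. For GALNT2, GALNT5 and GALNT10 siZNF274 thus lay on the DMSO side of siCTRL. For GALNT1 and GALNT12 siCTRL lay between siZNF274 and DMSO. The difference of siZNF274 from DMSO was not tested.

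**Figure D4:**
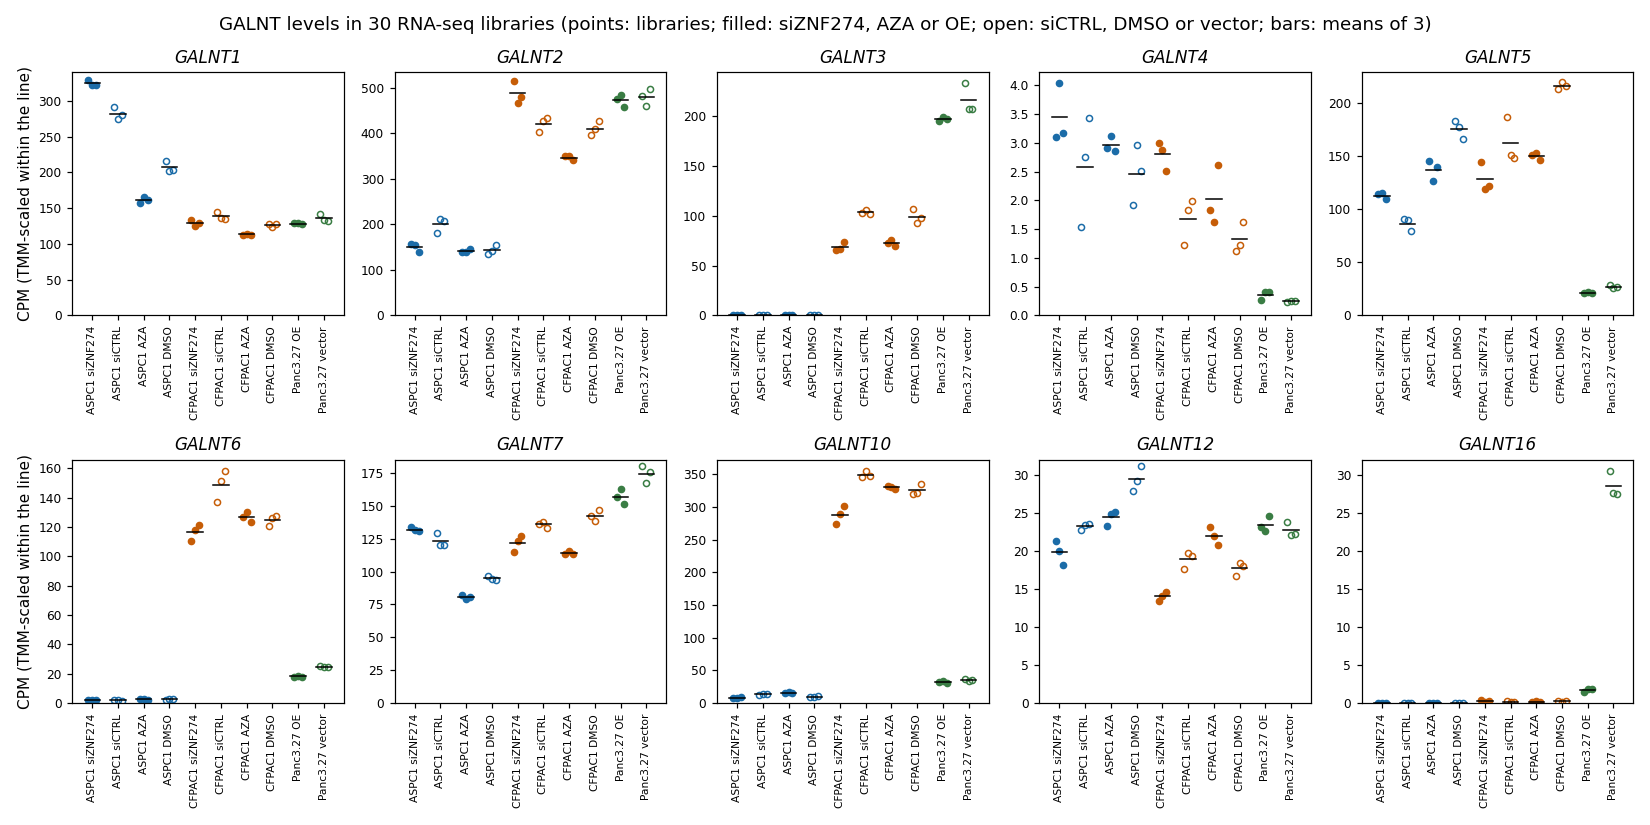
CPM (TMM-scaled within the line) of the 10 GALNT genes in 30 libraries, filled points for siZNF274, AZA or OE and open points for siCTRL, DMSO or vector, with bars at the mean of 3. GALNT16 is high only in the 3 Panc3.27 vector libraries (27.5 to 30.4 CPM), and GALNT3, GALNT6 and GALNT10 are far lower in ASPC1 than in CFPAC1.

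The lines were also compared without treatment. Between DMSO controls, ASPC1 against CFPAC1, 77.4% of 19094 genes were called, 36.3% higher and 41.0% lower in ASPC1. These 19094 were not limited to genes that passed in both lines. All 8 members that passed in both lines were called, 3 higher and 5 lower in ASPC1. On CPM scaled over all 30 libraries GALNT6 averaged 2.697 ± 0.315 CPM in ASPC1 and 122.5 ± 4.03 CPM in CFPAC1, 45.0-fold lower (log2 fold change -5.49, SE 0.09, edgeR adjusted p = 1.98e-27). GALNT10 averaged 9.98 ± 0.878 CPM in ASPC1 and 319.1 ± 10.8 CPM in CFPAC1, 31.6-fold lower (log2 fold change -4.98, SE 0.07, edgeR adjusted p = 5.59e-29). GALNT2 was 2.64-fold lower in ASPC1 (edgeR adjusted p = 2.59e-17), GALNT1 1.77-fold higher (edgeR adjusted p = 1.79e-15), GALNT12 1.80-fold higher (edgeR adjusted p = 1.59e-11) and GALNT4 2.00-fold higher (edgeR adjusted p = 0.000676). GALNT7 (log2 fold change -0.47) and GALNT5 (-0.19) were closer, and the call for GALNT5 (edgeR adjusted p = 0.0267) was lost without the third ASPC1 DMSO library (edgeR adjusted p = 0.116). Among the other pathway genes ST6GALNAC1 averaged 1.20 ± 0.389 CPM in ASPC1 and 136 ± 4.04 CPM in CFPAC1, 105-fold lower (line-scaled CPM, edgeR adjusted p = 1.98e-27), and GALNT14 had no count in ASPC1 DMSO libraries and 33.9 ± 1.14 CPM in CFPAC1.

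GALNT3 passed the filter in CFPAC1 and not in ASPC1 and so was not tested between them. It had 9 counts over all 12 ASPC1 libraries, 9 of which were at 0, while the CFPAC1 DMSO libraries had 4007, 3633 and 3674 counts. Panc3.27 vector cells, handled differently and set beside these as levels only, held GALNT3 at 203.5 ± 15.2 CPM, GALNT10 at 33.4 ± 1.46 CPM, GALNT6 at 23.3 ± 0.576 CPM and GALNT5 at 25.4 ± 1.48 CPM on the same 30-library scale. The ranges of these Panc3.27 levels overlapped neither DMSO group of the other lines. For GALNT12, 6 of the 9 neighbouring pairs in the order of the 10 groups overlapped, from 30.9 ± 1.74 CPM in ASPC1 DMSO down to 13.8 ± 0.672 CPM in CFPAC1 siZNF274.

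**Figure D5:**
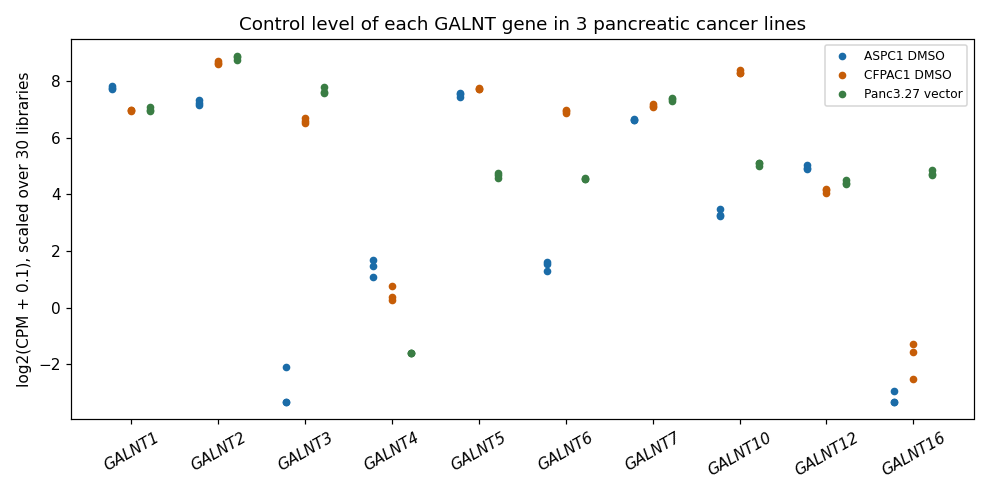
log2(CPM + 0.1), scaled over 30 libraries, of the 10 GALNT genes in each control library of ASPC1 (DMSO), CFPAC1 (DMSO) and Panc3.27 (vector). GALNT3 is present in CFPAC1 and Panc3.27 only, GALNT6 and GALNT10 are highest in CFPAC1, and GALNT16 is abundant in Panc3.27 alone.

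The genes most alike in pattern were named by the correlation of log2 CPM after centring each line, a description with no test, since libraries of a group share their treatment. Over 18 libraries of CFPAC1 and Panc3.27, the most similar to GALNT16 were FUT11 (Pearson's r 0.956), TFRC (0.938), MAP1A (0.935), MAPRE1 (0.923) and HNRNPK (0.921). After centring, GALNT16 varies mainly by the difference between OE and vector libraries that chose the members, so this list mainly ranks genes by how they follow that difference, and nothing is read from it. Over all 30 libraries GALNT1 was the gene most similar to GALNT7 among 14296 compared (r 0.931), and CDC42SE1 the most similar to GALNT1 (0.960). The most similar were FZD6 for GALNT2 (0.884), NPEPPS for GALNT5 (0.910), SPRTN for GALNT6 (0.824) and H4C6 for GALNT10 (0.912).

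The H3K9me3 peak list of ASPC1 gave a readout that the choice of members did not use. Of the 63955 peaks in the authors' deposited table, 14 overlapped a member, all classed there as intronic and none called as changed between shZNF274 and shCTRL, where 1.02% of all peaks were called. Peaks lay in GALNT1 (5), GALNT10 (3), GALNT2 (2), GALNT7 (2), GALNT3 (1) and GALNT5 (1), and covered 17.8% of the body of GALNT1 and 11.3% of that of GALNT5. The widest in GALNT1 was 8447 bases at chr18:35598365-35606811. Of the 14, 10 were listed for both hairpin groups and 4 for shZNF274 only (2 in GALNT1, 1 in GALNT2 and 1 in GALNT5), where 22% of all peaks were listed for shZNF274 only. The peak in GALNT5 was 6855 bases at chr2:157272108-157278962. No peak overlapped GALNT4, GALNT6, GALNT12 or GALNT16. Long genes meet more peaks: of the 9 members of at least 40000 bases, 66.7% held a peak, against 51.8% of the 6742 protein-coding genes from 40000 bases up to the longest member. Within 1000 bases of a start, none of the 9 annotated starts of members had a peak, where 7.37% of 35114 starts did. GALNT3, with 9 counts in ASPC1, held 1 intronic peak over 5.84% of its body, and GALNT16, with 1 count there, held none.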

How the data were processed

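RNA-seq libraries were made from 500 ng of ribosomal-RNA-depleted total RNA with a stranded kit, per the labels' protocols. The deposited table holds raw whole-number counts of reads per gene. Alignment with STAR 2.7.10b to hg38 is taken from the submitters' processing notes; for the RNA-seq table, counting program, strand setting and annotation are not stated there. The H3K9me3 peaks come from ASPC1 cells given 1 µg/ml doxycycline for 9 days, per the labels; the notes name MACS2, and do not say if samples were pooled for calling. The deposited score is the same in all peaks and was not used.

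Each line was fitted alone (12, 12 and 6 libraries) with edgeR 4.0.16 in R 4.3.3, on counts that passed filterByExpr, with TMM scaling and the quasi-likelihood test, Benjamini-Hochberg adjusted over all tested genes at a threshold of 0.05. The difference between lines and the contrast of DMSO controls were fitted over 24 libraries. The procedure was also run on simulated counts. These had the same spread setting for every gene, which need not match the spread of these libraries, and no result here rests on them. Log2 CPM for correlations used a prior count of 2. The count table holds 0 columns of other samples. No pair of libraries was identical; the chi-square per gene within groups ran from 2.83 to 27.7. The design text calls replicates biological triplicates, but labels do not say whether cultures were separate, so the spread behind a p-value may be technical. Floors cover counting error only. Alternatives were other scaling (RLE, upper quartile), no filter, DESeq2 1.42.0, the replicate block, fits of 6 libraries and leaving out each library.

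The members and gene lists were chosen with earlier results of these data known. Every member is named. Library values are given for GALNT16, for called changes of at least 1.5-fold within a line and for most members called in both lines. They are also given for others chosen after their values were seen. Of the members called in both lines, GALNT12 in ASPC1, GALNT7 in ASPC1 under AZA and GALNT1 in CFPAC1 under AZA have fold changes only. From each list the 3 called genes with the largest change qualified. Counts of the extension, sialylation, supply and mucin lists are given for the main contrasts. Other CUT&RUN profiles were not used here.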

Additional observations from a re-analysis of the deposited data

Results flagged for a closer look

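The effect of the siZNF274 label differed between ASPC1 and CFPAC1 for 5 of the 8 members that passed in both lines. Each was called by an interaction test in edgeR (ASPC1 minus CFPAC1, log2). Among all 19094 genes of that fit 16.6% were called. The differences were 0.29 for GALNT1, -0.65 for GALNT2, 0.70 for GALNT5, 0.24 for GALNT7 and -0.41 for GALNT10, from groups of 3 libraries. For GALNT2 and GALNT5 the direction itself was opposite, and for GALNT10 both lines fell by unequal amounts. Between siCTRL and DMSO, GALNT2, GALNT5 and GALNT10 differed by 0.48, -1.02 and 0.47 in log2 in ASPC1, all called. In CFPAC1 these differences were 0.04, -0.42 and 0.10, with only GALNT5 called. The part of the siCTRL libraries in the differences between lines was not tested. ZNF274 itself did not pass the test in this contrast in either line.

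The effect of AZA differed between ASPC1 and CFPAC1 for 3 of the same 8 members in the same test. Among all 19094 genes 17.3% were called. The differences were -0.20 for GALNT1, 0.73 for GALNT10 and -0.58 for GALNT12. The call for GALNT1 was lost in 9 of 17 alternative settings. GALNT10 rose in ASPC1, where its DMSO level was 31.6-fold lower than in CFPAC1, and was not called in CFPAC1.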

How the results depend on the processing

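Of 49 called results of single members, 42 kept their direction and their call under every alternative run, 7 lost the call at least once and none changed sign. Of 29 results that were not called, 6 gained a call and 7 changed sign under at least 1 alternative. GALNT16 in OE against vector stayed between -4.11 and -3.97 in log2 without each library. The sign changes were all in values that were not called. GALNT2 under AZA in ASPC1 stood at 0.016 with upper quartile scaling, and without each library ran from -0.058 to 0.040. Without each library, GALNT6 ran from -0.15 to 0.027 under AZA in ASPC1, from -1.05e-05 to 0.044 under AZA in CFPAC1 and up to 0.0068 in the difference between lines under AZA. GALNT4 ran from -0.18 to 0.34 in siCTRL against DMSO in ASPC1. GALNT16 ran from -0.62 to 0.20 under AZA in CFPAC1 and from -1.06 to 0.011 in siCTRL against DMSO there. The cause was not tested.

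In CFPAC1 under AZA 2 members were called higher with upper quartile scaling, without the filter, with the replicate block and with DESeq2, against 1 in the report, the second being GALNT4. In CFPAC1 siCTRL against DMSO 2 were called higher with upper quartile scaling and with DESeq2. In the difference between lines under AZA 2 were called higher with upper quartile scaling and without the filter, and 1 lower without the filter. Fits of the 6 libraries compared called 758 genes higher and 846 lower in CFPAC1 siCTRL against DMSO, against 1322 and 1488. A cover of at least 10% of the body left 2 members with H3K9me3, against 6.

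Leaving out each library gave 1462 to 2458 genes higher and 1 to 2 members higher in CFPAC1 under AZA, 1565 to 2434 genes lower and 1 to 2 members higher in CFPAC1 siZNF274 against siCTRL, and 1 to 2 members higher and 1 to 2 lower in the difference between lines under AZA.

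Whether replicate numbers pair the libraries was not settled. In no contrast did all 3 same-numbered pairs correlate above 0.1. In ASPC1 siCTRL against DMSO they correlated at 0.160, 0.081 and 0.187, above the highest with another number (0.024, -0.015 and -0.088). In ASPC1 siZNF274 against siCTRL they were at 0.088, 0.065 and 0.144, again above the others (0.053, -0.009 and -0.049). In each other contrast some same-numbered pair was not the highest. The replicate block otherwise moved no count by over 1.5 times. With the block GALNT7 in ASPC1 siZNF274 against siCTRL was called (edgeR adjusted p = 0.0453). Counts of GALNT16 in CFPAC1 (3 to 15 per library) and of GALNT4 limit what could be detected.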
